A study of Mus musculus with 12 samples.

Results

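The 8 genes described here, *Arc*, *Homer1*, *Nptx1*, *Nptx2*, *Nptxr*, *Npas4*, *Rgs2* and *Rgs4*, were grouped as effectors of neuronal activity at the synapse, together with the nuclear transcription factor *Npas4*. They were chosen with earlier results of these data known and then taken by gene symbol from the 23183 genes listed in each library, so shares of the 8 set beside shares of all genes are a description. All 8 passed the filter on low values in cortex as well as hippocampus. Both brain regions came from male C57BL/6 mice, which had arrived at 7 weeks of age and were acclimatized for 1 week. Tissue was taken 3 months after a single whole-brain dose of 10 Gy (IR) or a sham procedure without radiation (Con). Each region had 3 Con and 3 IR libraries, 12 in all. No transgene or other treatment was named for any group. The sources used here do not say how many mice contributed to a library, whether libraries of the same number came from the same mouse, or how long before tissue collection the mice had last been tested or handled. The p values given here therefore measure the spread between these libraries.

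When a neuron fires strongly, calcium entry switches on a set of genes, some of them within minutes. Many of these genes encode transcription factors, and others are effector genes that act on the synapse itself. *Arc* protein enters dendrites and promotes the removal of AMPA-type glutamate receptors, and the short form of *Homer1* loosens the scaffold that ties metabotropic glutamate receptors to their partners. Neuronal pentraxins are secreted or membrane-bound proteins that gather AMPA receptors at the surface, *Npas4* is a transcription factor of neurons that is induced by activity, and RGS proteins shorten signaling through G proteins. *Arc*, the short form of *Homer1* and *Npas4* are widely used as readouts of recent activity in the rodent cortex and hippocampus, and a comparison of IR with Con libraries asks how these genes stood months after irradiation.

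Levels are given as deposited, in FPKM, which counts sequenced fragments relative to transcript length and library size. Since FPKM is per length, levels of different genes can be set side by side, as far as the transcript length assumed for each gene holds. Between libraries, levels are comparable as far as the scaling to library size holds. The libraries had summed FPKM of 359773 to 393447. How many reads each library had is not known. The spacing of low FPKM values gave a rough estimate of 1 to 1.13 relative to the first Con library of each region. It took the commonest ratio among low genes, which 251 of 722 genes shared in the second IR library of the cortex. In the hippocampus as few as 38 of 610 shared it, in the first IR library. The estimate therefore does not show that depths were equal. Of the 9 genes in a list of hippocampal field markers, 8 were higher in the hippocampus of Con mice after adjustment. Of 10 cortical layer markers, 7 were lower there and 1 was higher. Of all 14459 genes tested, 3406 were higher in the hippocampus and 2985 lower. The third Con library of the hippocampus stood apart, since 880 genes had an adjusted p under 0.05 without it, compared with 4 with all 6 libraries. Value columns carry different name endings in cortex and hippocampus libraries, and the sources used here do not say what the endings mark. A difference between the regions therefore cannot be told apart from a difference in whatever they mark.

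In the Con cortex, *Nptxr* had the highest level of the 8 genes, at 192 ± 7.77 FPKM (SD, n = 3), followed by *Rgs4* at 149.8 ± 25.4 and *Nptx1* at 77.1 ± 4.85 FPKM. *Arc* came next at 62.1 ± 31.6 FPKM and overlapped with both *Nptx1* above it and *Homer1* below it, at 28.8 ± 2.27 FPKM. *Nptx2* at 19.2 ± 2.70, *Rgs2* at 14.2 ± 0.706 and *Npas4* at 9.63 ± 2.44 FPKM completed the order. Apart from those of *Arc*, no neighbors in this order overlapped. In terms of all genes above 0 in the Con cortex, 98.5% lay below *Nptxr* and 63.5% below *Npas4*, so the transcription factor was the least abundant member and the pentraxin receptor the most abundant.

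The order in the Con hippocampus had the same ends, with *Nptxr* at 276 ± 11.4 FPKM and *Npas4* at 3.13 ± 0.320 FPKM (SD, n = 3). *Nptx1* took the second place there at 164 ± 16.0 FPKM, while *Rgs4* stood at 47.4 ± 3.73 and *Arc* at 32.3 ± 10.4 FPKM. *Homer1* was at 22.2 ± 1.67, *Nptx2* at 13.1 ± 0.794 and *Rgs2* at 9.07 ± 0.615 FPKM, and *Arc* and *Homer1* were the neighbors that overlapped.

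Between the regions of Con mice, 7 of the 8 genes differed with an adjusted p under 0.05 in limma, compared with 44.2% of all 14459 genes tested in the model over 12 libraries. *Nptx1* was higher in the hippocampus by 1.08 on the log2(FPKM + 1) scale (standard error, SE, 0.073, limma adjusted p = 7.05e-08), and *Nptxr* by 0.52 (SE 0.061, limma adjusted p = 1.38e-05). Lower there were *Rgs4*, with a log2 difference of -1.63 (adjusted p = 3.02e-08), *Npas4* with -1.34 (adjusted p = 0.000184), *Rgs2* with -0.60 (adjusted p = 8.27e-05), *Nptx2* with -0.51 (adjusted p = 0.000266) and *Homer1* with -0.36 (adjusted p = 0.00377), all in limma. The pentraxins thus divided, with *Nptx1* and the receptor *Nptxr* higher in the hippocampus and the activity-induced *Nptx2* higher in the cortex. The *Arc* difference of -0.81 had an adjusted p of 0.166, and without the first Con library of the cortex it was -1.33 with an adjusted p of 0.00506.

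**Figure D1:**
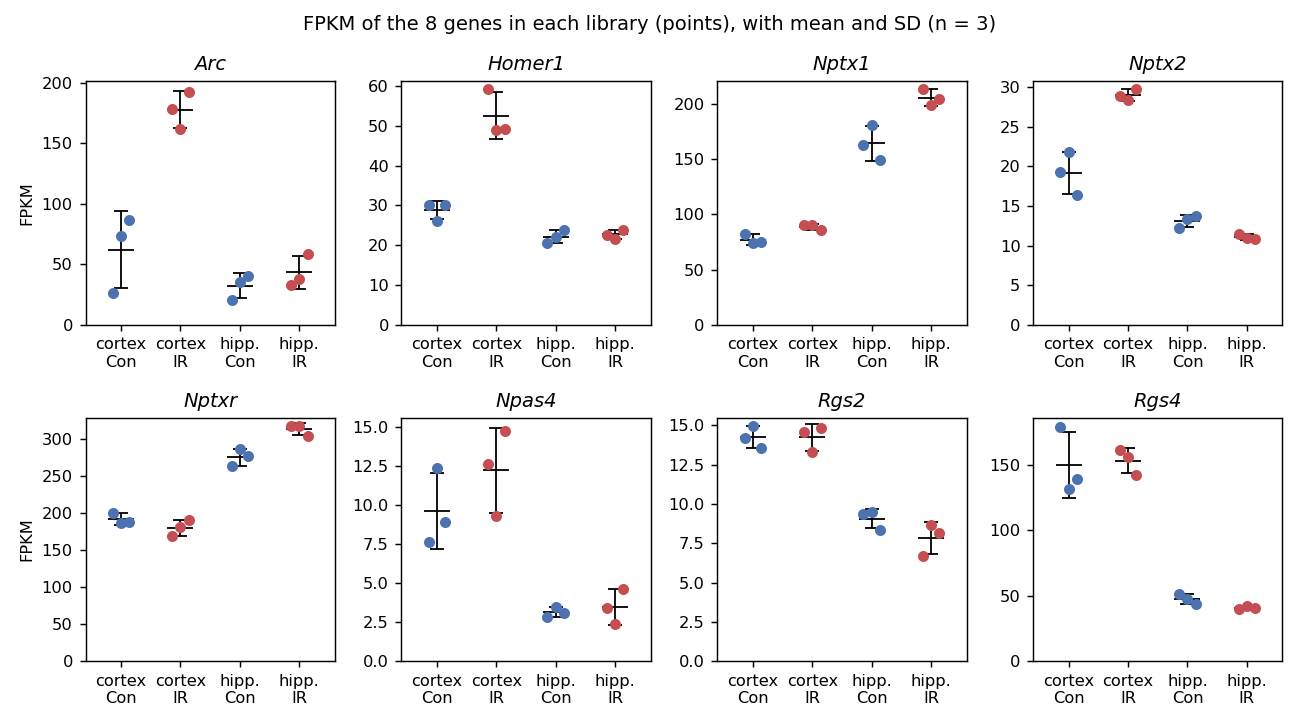
FPKM (vertical axes, each from 0) of the 8 genes in the Con (blue) and IR (red) libraries of the cortex and hippocampus (hipp.), with a point per library and the mean and SD of 3 libraries as bars. In the cortex the IR points of *Arc*, *Homer1*, *Nptx1* and *Nptx2* lie above all Con points, and in the hippocampus those of *Nptx1* and *Nptxr* lie above and those of *Nptx2* and *Rgs4* below.

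Compared to Con, cranial irradiation was followed in the cortex by higher levels of *Homer1* and *Nptx2*. These 2 of the 8 genes rose with an adjusted p under 0.05, as did 0.562% of the 14065 genes tested in the cortex. The criterion of a modeled fold change of at least 1.5 with an unadjusted p under 0.05 was also met in this direction by 2 of 8, *Homer1* and *Arc*, compared with 0.391% of all genes tested. All IR libraries lay above all Con libraries for 4 members, *Arc*, *Homer1*, *Nptx1* and *Nptx2*, which was the case for 11.2% of all genes tested. The same 4 were higher with an unadjusted p under 0.05, compared with 8.16%. No member lay below without overlap. The median log2 fold change of the 8 genes was 0.26, compared with 0.0016 over all genes tested. In bulk tissue, more or fewer cells of a type and more or less RNA per cell cannot be told apart.

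*Homer1* (GRCm38, chr13:93299635-93405129, plus strand) encodes a postsynaptic scaffold protein. It was listed at 30.1, 26.2 and 30.1 FPKM in the 3 Con libraries of the cortex and at 59.4, 49.0 and 49.3 FPKM in the IR libraries. The lowest IR value was well above the highest Con value, and the spread within each group was small. From 28.8 ± 2.27 to 52.6 ± 5.91 FPKM (SD, n = 3), *Homer1* rose by 0.84 on the log2 scale (SE 0.085, limma adjusted p = 0.00400). It ranked 7 by p among the 14065 genes tested, and its adjusted p was between 0.000567 and 0.0342 in the 14 alternative analyses.

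The annotation GENCODE M21 lists 12 *Homer1* transcripts, 11 of them coding, with 5 to 10 exons. The coding transcripts range from 772 to 5713 nucleotides. The short form that is induced by activity and the long scaffold forms therefore share a symbol, and the values here cannot split them.

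*Nptx2* (chr5:144545902-144557478, plus strand), also known as Narp, is the pentraxin that activity induces. Its cortex levels were 19.3, 21.8 and 16.4 FPKM in Con and 28.9, 28.4 and 29.8 FPKM in IR. The IR libraries were closer to each other than the Con libraries were, and none overlapped with Con. The gene rose from 19.2 ± 2.70 to 29.0 ± 0.746 FPKM (SD, n = 3), which gave a log2 fold change of 0.58 (SE 0.089, limma adjusted p = 0.0244). This is just under the fold threshold of 1.5, whereas the ratio of the group means was 1.51. In 5 of the 14 alternatives the call was lost, with adjusted p values up to 0.116. These were the analyses with no filter on low values, with no trend or robust prior, and without each of the IR libraries.

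*Arc* (chr15:74669083-74672570, minus strand), whose transcript travels to active dendrites, had the largest modeled fold change of the 8 genes in the cortex, and also the widest spread. Con libraries stood at 26.4, 73.2 and 86.6 FPKM and IR libraries at 179, 162 and 192 FPKM. All IR values were above all Con values, and the first Con library was far below the other two. The means were 62.1 ± 31.6 and 178 ± 15.2 FPKM (SD, n = 3), a ratio of 2.86, and the log2 fold change was 1.66 (SE 0.50, unadjusted p = 0.0263 and adjusted p = 0.286 in limma). Without the first Con library the log2 fold change of *Arc* was 1.15, with an adjusted p of 0.00138, so a single library decided this call. *Arc* no longer met the criterion of fold change and unadjusted p without the second Con library or without any 1 of the 3 IR libraries, each left out alone (unadjusted p from 0.0508 to 0.0806 in limma).

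*Nptx1* (chr11:119538719-119547753, minus strand), a secreted pentraxin, was listed at 82.6, 73.6 and 74.9 FPKM in Con cortex and at 90.3, 90.2 and 85.8 FPKM in IR cortex. The groups did not overlap, but the gap was narrow. The log2 fold change was 0.20 (SE 0.058), with an unadjusted p of 0.00553 and an adjusted p of 0.171 from limma.

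The other members overlapped between the groups of the cortex. *Nptxr* (chr15:79786351-79804766, minus strand), a membrane-bound pentraxin, was listed at 201, 188 and 188 FPKM in Con and at 169, 181 and 190.4 FPKM in IR, which gave a log2 fold change of -0.09 (limma adjusted p = 0.519). *Npas4* (chr19:4984355-4990316, minus strand) was listed at 7.64, 12.3 and 8.91 FPKM in Con and at 12.6, 9.27 and 14.7 FPKM in IR. Its log2 fold change of 0.31 had a standard error of 0.19 and an adjusted p of 0.523 from limma, with a 95% interval from -0.14 to 0.77, so a difference the size of that of *Nptx2* was inside the interval.

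Of the regulators of G protein signaling, *Rgs2* (chr1:143999338-144004161, minus strand) was listed in the cortex at 14.2, 15.0 and 13.6 FPKM in Con and at 14.6, 13.3 and 14.8 FPKM in IR, and its 95% interval for the log2 fold change ran from -0.15 to 0.14. *Rgs4* (chr1:169741477-169747642, minus strand) was listed at 179, 132 and 139 FPKM in Con and at 161, 156 and 142 FPKM in IR. Its log2 fold change was 0.04, with a 95% interval from -0.20 to 0.28. Neither gene moved beyond the spread between libraries.

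*Nptxr* shares exons on the same strand with *Npcd*, so the division of reads between these genes is uncertain. *Npcd* levels were 36.7 ± 4.76 FPKM (SD, n = 3) in Con cortex and 26.7 ± 5.50 FPKM in IR cortex. The sum of *Nptxr* and *Npcd* was 237, 229 and 220.2 FPKM in the Con libraries of the cortex and 196, 213 and 211 FPKM in the IR libraries. It did not overlap between the groups, unlike *Nptxr* on its own. The sum was looked at after the values of both genes were seen and was not tested.

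The deposited values do not report on promoters, but 4 of the 8 genes could be matched to RefSeq promoter sequences on GRCm38.p6, namely *Homer1*, *Npas4*, *Rgs2* and *Rgs4*. *Arc*, *Nptx1*, *Nptx2* and *Nptxr* were not matched. CREB, a factor that calcium signals activate, binds the cyclic AMP response element, whose half-site is TGACG. The 250 bases before 1 start of *Homer1*, of *Npas4* and of *Rgs4* are shown because they put the half-sites of a gene that rose in the cortex beside those of genes that did not pass the test. Each is written 5′ to 3′ on the strand of the gene, with TGACG or its reverse complement CGTCA in capitals. The coordinates are chr13:93303507-93303756 on the plus strand, chr19:4989972-4990221 on the minus strand and chr1:169747643-169747892 on the minus strand.
Homer1: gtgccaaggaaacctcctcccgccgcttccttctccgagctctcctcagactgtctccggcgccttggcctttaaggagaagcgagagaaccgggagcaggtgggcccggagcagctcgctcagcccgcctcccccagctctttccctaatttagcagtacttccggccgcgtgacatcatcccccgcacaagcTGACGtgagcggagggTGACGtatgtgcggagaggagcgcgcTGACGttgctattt
Npas4: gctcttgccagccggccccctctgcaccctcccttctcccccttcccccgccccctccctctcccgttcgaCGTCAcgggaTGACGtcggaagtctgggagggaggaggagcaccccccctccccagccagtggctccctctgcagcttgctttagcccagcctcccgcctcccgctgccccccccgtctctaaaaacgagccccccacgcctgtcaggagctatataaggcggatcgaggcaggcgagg
Rgs4: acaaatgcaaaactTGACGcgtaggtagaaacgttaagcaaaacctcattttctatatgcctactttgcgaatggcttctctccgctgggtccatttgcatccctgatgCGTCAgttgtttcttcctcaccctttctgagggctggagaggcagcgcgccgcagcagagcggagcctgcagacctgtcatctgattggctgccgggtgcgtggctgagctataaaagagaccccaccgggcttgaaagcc

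TGACG was found 3 times in this *Homer1* promoter, 56, 40 and 14 bases before the start, and was absent before the second *Homer1* start in the table. *Npas4* holds it 2 times, 179 and 169 bases before its start, *Rgs4* 2 times, at 236 and 141, and *Rgs2* 2 times, at 185 and 67. On both strands together, 17.8% of the 32851 promoters of the same length hold TGACG, and 3.9% hold it 2 or more times. The full element TGACGTCA, which contains the half-site on both strands, was in 1.55% of them, and the CArG box, the site of the factor SRF, was in 1.47%. Neither of these was in the windows of the 4 genes. Repeated half-sites were thus found before genes that did not pass the test in the cortex as well as before *Homer1*, and a match is a description of the letters alone.

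In the hippocampus, no member reached an adjusted p under 0.05 in limma, and none met the fold criterion. The share of all 14043 genes tested was 0.0285% and 0.527%, respectively. With an unadjusted p under 0.05 there were 4 of the 8 genes, 2 higher in IR and 2 lower, where 13.9% of all genes tested had one. The same 4 genes did not overlap between the groups, compared with 19.8% of all genes tested. Their directions were mixed, and the median log2 fold change of the 8 genes was 0.060, compared with -0.010 over all genes tested. Without the third Con library, which stood apart, the lowest adjusted p of the 8 genes was 0.0523 for *Rgs4*, and none was under 0.05.

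*Nptx1* was the member with the lowest p in the hippocampus. It was listed at 163, 181 and 149 FPKM in Con and at 214, 199 and 205 FPKM in IR, so that all IR libraries lay above Con. From 164 ± 16.0 to 206 ± 7.53 FPKM (SD, n = 3), the log2 fold change was 0.33 (SE 0.084, unadjusted p = 0.00461 and adjusted p = 0.247 in limma). *Nptx1* was thus higher in every IR library of both regions, with log2 fold changes of 0.20 and 0.33, neither of which passed the adjustment.

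*Nptxr* stood at 264, 287 and 277 FPKM in Con hippocampus and at 318, 319 and 304 FPKM in IR. The groups did not overlap, and the log2 fold change was 0.18 (SE 0.067, limma adjusted p = 0.321). *Npcd*, with which it shares exons, was at 15.1 ± 7.99 FPKM (SD, n = 3) in the Con group and 8.79 ± 6.68 FPKM in the IR group. The sum of both genes lay between 288 and 295 FPKM in Con and between 319.7 and 327 FPKM in IR, without overlap.

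*Nptx2* had the opposite order in this region. Con libraries were at 12.2, 13.4 and 13.7 FPKM and IR libraries at 11.5, 11.0 and 10.8 FPKM, with all IR values below all Con values. The log2 fold change was -0.22 (SE 0.069, unadjusted p = 0.0129 and adjusted p = 0.288 in limma).

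*Rgs4* was listed at 51.1, 47.5 and 43.7 FPKM in Con hippocampus and at 39.7, 42.3 and 40.7 FPKM in IR. It also lay below Con without overlap, with a log2 fold change of -0.21 (SE 0.073, limma adjusted p = 0.311). *Rgs2* was at 9.38, 9.46 and 8.36 FPKM in Con and at 6.68, 8.66 and 8.15 FPKM in IR, with overlap and a log2 fold change of -0.19 (limma adjusted p = 0.412).

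The other members overlapped widely in the hippocampus. *Homer1* was listed at 20.6, 22.0 and 23.9 FPKM in Con and at 22.7, 21.7 and 23.8 FPKM in IR, with a 95% interval of the log2 fold change from -0.13 to 0.20. *Arc* was at 20.7, 35.6 and 40.7 FPKM in Con and at 33.0, 38.1 and 58.6 FPKM in IR. Its log2 fold change of 0.42 had an adjusted p of 0.526 from limma and an interval from -0.27 to 1.11. This value rested on single libraries, as it was 0.14 without the first Con library and 0.18 without the third IR library, and at most 0.61, without the third Con library. *Npas4* was at 2.83, 3.47 and 3.09 FPKM in Con and at 3.40, 2.36 and 4.63 FPKM in IR, which gave a log2 fold change of 0.08 (limma adjusted p = 0.845).

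**Figure D2:**
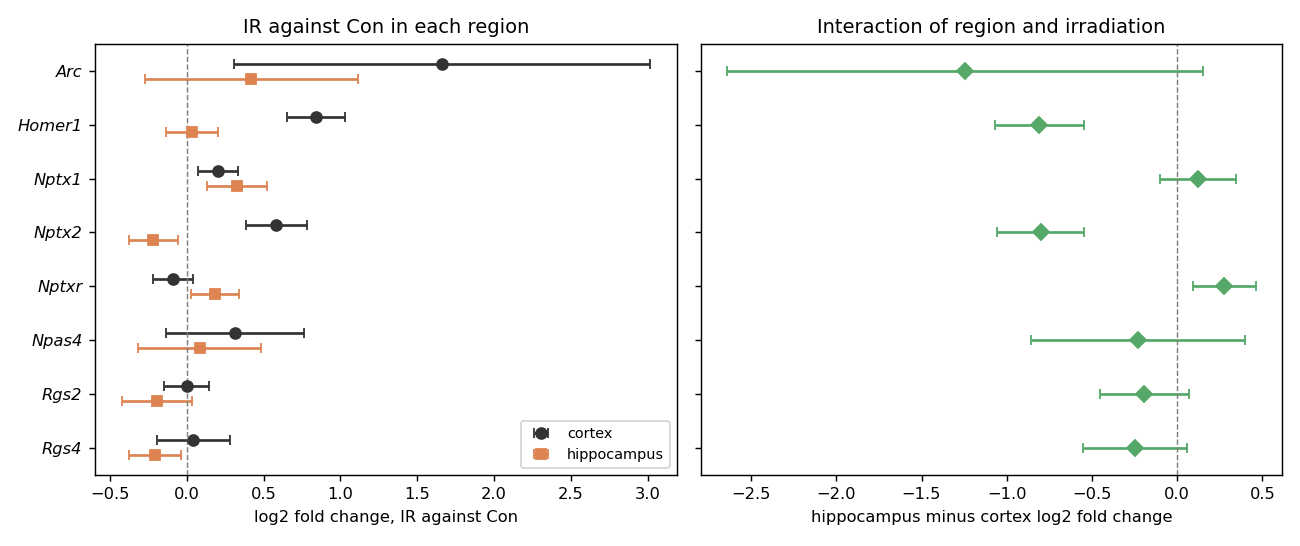
Log2 fold change of IR against Con for each gene in the cortex (black circles) and the hippocampus (orange squares), and on the right the difference of the fold changes, hippocampus minus cortex (green diamonds), with 95% intervals from limma. *Homer1* and *Nptx2* have interaction intervals far from 0, whereas *Arc* has the widest interval in each comparison.

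Whether the response to irradiation differed between the regions was tested by the interaction of region and irradiation over all 12 libraries. An adjusted p under 0.05 was reached by 2 of the 8 genes, *Homer1* and *Nptx2*, compared with 0.0830% of the 14459 genes tested. The *Homer1* fold change was smaller in the hippocampus, with a difference of -0.81 on the log2 scale (SE 0.12, limma adjusted p = 0.0294). For *Nptx2* the difference was -0.80 (SE 0.12, limma adjusted p = 0.0294), and here the IR libraries lay above Con in the cortex and below Con in the hippocampus, in each case without overlap. These calls were lost in many alternatives. Of 20 run for each gene, 8 kept an adjusted p under 0.05, while the difference itself stayed between -0.86 and -0.72 for *Homer1* and between -0.89 and -0.70 for *Nptx2*. With the library number as a fixed block over both regions, which was chosen after seeing the data, the adjusted p was 0.141 for both in limma, and whether libraries of the same number share a mouse is not known. The call of *Homer1* held without the first Con, the third Con or the third IR library of the hippocampus and was lost without any of the other 9 libraries (limma adjusted p from 0.0609 to 0.118). That of *Nptx2* held without the second Con library of the cortex and without the first and the third Con library of the hippocampus, each left out alone, and was lost without any of the other 9 (limma adjusted p from 0.0569 to 0.109).

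The interaction of *Arc* was -1.24, with a standard error of 0.62 and an adjusted p of 0.519 from limma. Without the first Con library of the cortex it was -0.72, smaller in size than that of *Homer1* in the same fit, -0.84. *Nptxr* was the member whose interaction was positive with an unadjusted p under 0.05, at 0.28 (unadjusted p = 0.00692, adjusted p = 0.331). For *Nptx1* the interaction was 0.12, for *Npas4* -0.23, for *Rgs2* -0.19 and for *Rgs4* -0.25, with adjusted p values from 0.551 to 0.806 in limma.

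Since *Nptx1* and *Nptx2* form mixed complexes, the ratio of their levels was also taken, after their values had been seen and without a test. In the cortex *Nptx2* was at 0.249 ± 0.0410 times the level of *Nptx1* in Con and at 0.327 ± 0.0178 times in IR (SD, n = 3). In the hippocampus the ratio was 0.0802 ± 0.0101 in Con and 0.0539 ± 0.00116 in IR. It did not overlap between the groups in either region, and was higher in IR in the cortex and lower in IR in the hippocampus.

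**Figure D3:**
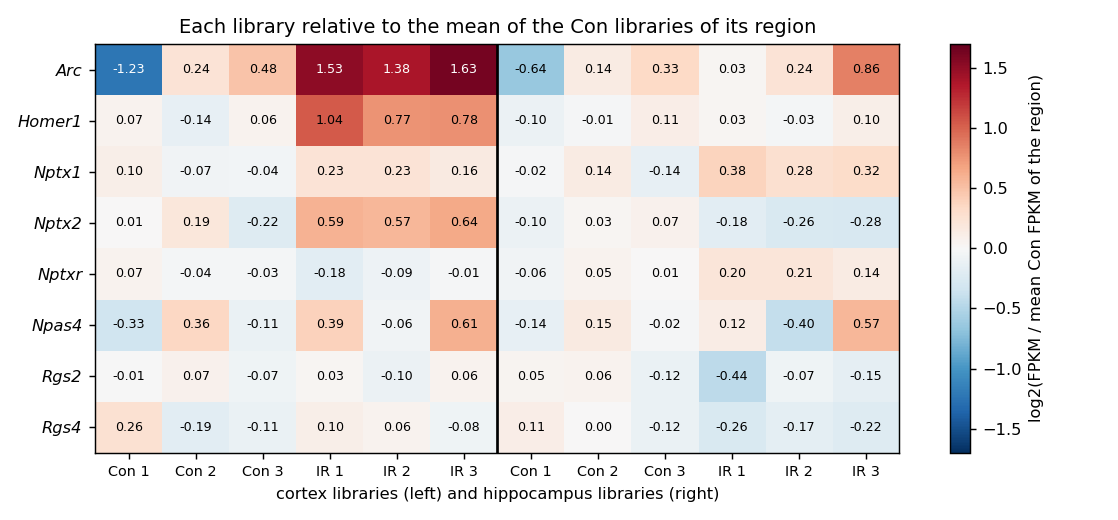
Each of the 12 libraries (horizontal axis) relative to the mean of the Con libraries of its region, as log2 of the ratio of FPKM without a pseudocount, for the 8 genes (vertical axis). Values run from -1.23 for *Arc* in the first Con library of the cortex to 1.63 for *Arc* in the third IR library of the cortex, and *Rgs2* and *Rgs4* stay between -0.19 and 0.26 in the cortex.

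Genes that act with the members were taken from lists. Of 10 Homer partners tested none had an adjusted p under 0.05 in limma in either region, and their median log2 fold changes were 0.089 in the cortex and -0.032 in the hippocampus. In the cortex 4 of them, and in the hippocampus 1, had an unadjusted p under 0.05, compared with 14.1% of the genes tested in cortex and 13.9% of those tested in hippocampus. The scaffold genes *Dlgap1* and *Dlg4* had the highest levels of this list. *Dlgap1* was at 149.7 ± 4.73 FPKM in Con cortex and 139 ± 1.20 FPKM in IR, and its log2 fold change was -0.11 (limma adjusted p = 0.337), and *Dlg4*, which encodes PSD-95, was at 240.4 ± 9.64 and 246 ± 8.37 FPKM, with 0.03 (limma adjusted p = 0.831).

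The 16 Arc partners and regulators of *Arc* transcription had no adjusted p under 0.05 in limma either, and the unadjusted p was under 0.05 for 4 of them in cortex and 5 in hippocampus, where all genes gave 14.1% and 13.9%. Their medians were 0.032 and 0.057. *Camk2a* and *Camk2b*, the kinase subunits that are the most abundant members of this list, differed by 0.09 (adjusted p = 0.577) and -0.01 (limma adjusted p = 0.923) in the cortex. So the genes that act with *Homer1* and *Arc* did not pass the test where *Homer1* did.

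Of the pentraxin partners, 7 of 11 were tested, and none had an adjusted p under 0.05 in limma, and the unadjusted p was under 0.05 for 1 of the 7 in cortex and 2 in hippocampus, beside 14.1% and 13.9% of all genes tested. The AMPA receptor subunit *Gria2* was at 169 ± 6.53 FPKM in Con hippocampus and 145 ± 5.38 FPKM in IR, without overlap (log2 fold change -0.22, adjusted p = 0.278 from limma). *Gria1* was at 292 ± 19.6 and 262 ± 13.5 FPKM there, with overlap (-0.15, adjusted p = 0.411). The list's median log2 fold change was 0.029 for cortex and -0.15 for hippocampus.

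In the RGS family, 14 of 18 other genes were tested, and of a list of G alpha subunits 10 of 11 were. None had an adjusted p under 0.05 in limma in either region. Unadjusted p values under 0.05 numbered 0 and 3 of 14 for the RGS family in the cortex and the hippocampus, and 1 and 1 of 10 for the G alpha subunits, and the shares over all genes were 14.1% and 13.9%. *Rgs14*, a gene known from the CA2 field of the hippocampus, was at 16.3 ± 1.60 FPKM in Con cortex and 44.7 ± 1.12 FPKM in Con hippocampus, and at 15.4 ± 1.00 and 44.6 ± 4.64 FPKM in IR (SD, n = 3). *Rgs7*, *Gnao1* and *Gnas* were the other abundant members, with log2 fold changes from -0.10 to 0.05 in the cortex and from -0.15 to -0.03 in the hippocampus.

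Of the bHLH-PAS relatives and dimer partners of *Npas4*, 5 of 7 were tested and none had an adjusted p under 0.05 in limma, with 1 unadjusted p under 0.05 in each region, against shares of 14.1% in cortex and 13.9% in hippocampus over all genes. *Arnt2*, the neuronal partner of *Npas4*, was at 73.0 ± 2.96 FPKM in Con cortex and 73.4 ± 2.70 FPKM in IR. *Arnt* was at 10.2 ± 0.760 FPKM in Con hippocampus and 11.8 ± 0.303 FPKM in IR, without overlap (log2 fold change 0.20, adjusted p = 0.316 from limma).

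Of 19 other effector genes of neuronal activity tested in the cortex, 4 rose with an adjusted p under 0.05, where 0.562% of all genes tested did. None fell, 15 did not pass, and the median log2 fold change was 0.23. *Bdnf*, a growth factor of synapses, was listed at 4.88, 5.20 and 5.30 FPKM in Con and at 8.03, 7.80 and 8.89 FPKM in IR, which gave a log2 fold change of 0.59 (SE 0.074, limma adjusted p = 0.0106). *Pcsk1*, a protease that matures neuropeptides, rose by 0.44 (adjusted p = 0.0170), *Plat*, which encodes tissue plasminogen activator, by 0.38 (adjusted p = 0.0336), and *Gpr3*, a receptor that raises cyclic AMP, by 0.73 (adjusted p = 0.0397). *Nrn1* and *Cpne6*, the most abundant of the list, were at log2 fold changes of 0.10 (adjusted p = 0.582) and -0.07 (limma adjusted p = 0.919).

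In the hippocampus none of these 19 genes passed the adjustment in limma, and the median was -0.15. An unadjusted p under 0.05 was reached by 5 of them, 1 higher and 4 lower in IR, compared with 13.9% of all genes tested. *Plat*, the gene that was higher, was at 11.7 ± 1.08 FPKM in Con and 15.8 ± 0.827 FPKM in IR there, without overlap, and its log2 fold change there was 0.40 (adjusted p = 0.218), which is about that in the cortex. *Bdnf* was at 12.5 ± 0.949 and 11.2 ± 0.705 FPKM with overlap. Its interaction was -0.74 (SE 0.10, limma adjusted p = 0.0292), close to those of *Homer1* and *Nptx2*, and the *Plat* interaction was 0.02 (adjusted p = 0.967).

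Among 13 transcription factors that activity induces rapidly, 3 rose in the cortex with an adjusted p under 0.05 and none fell, and 0.562% of all genes tested rose. The median log2 fold change was 0.86, and 11 of the 13 had all IR libraries above all Con libraries, as did 11.2% of all genes tested. *Egr3* went from 34.2, 35.7 and 37.8 FPKM in Con to 75.1, 66.8 and 72.9 FPKM in IR, which gave a log2 fold change of 0.97 (SE 0.062, limma adjusted p = 0.000185). *Fosb* rose by 0.77 (adjusted p = 0.0303) and *Klf4* by 0.63 (adjusted p = 0.0353). *Egr1*, the most abundant factor of the list, was listed at 49.9, 93.3 and 96.9 FPKM in Con and at 152, 161 and 193 FPKM in IR, and its log2 fold change was 1.12 (limma adjusted p = 0.210).

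The first Con library of the cortex, which decided the call of *Arc*, was the lowest of the Con libraries for 12 of these 13 factors and for 10 of the 19 other effector genes. The first Con library of the hippocampus was the lowest for 8 of the 13 and 8 of the 19. The other Con libraries there were the lowest for 2 and 3 of the 13 and for 5 and 6 of the 19. Some Con library is the lowest for any gene, and the share over all genes was not counted. Whether the counts of either region stand out was therefore not tested. In the hippocampus none of the 13 factors passed the adjustment in limma, 2 had an unadjusted p under 0.05, near the 13.9% of all genes, and the median was 0.12. The *Egr3* interaction was -0.93 (SE 0.12, limma adjusted p = 0.0292), and *Egr1* had -0.998 (adjusted p = 0.426).

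**Figure D4:**
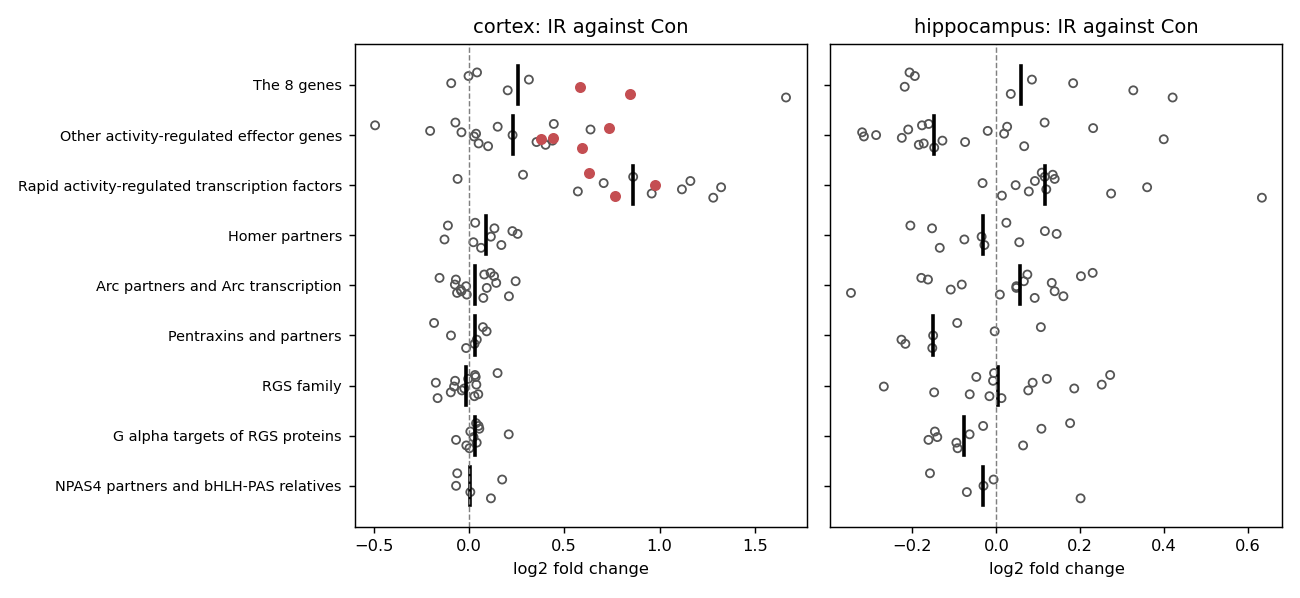
Log2 fold changes (horizontal axes, which differ in range) of IR against Con for the 8 genes and the tested genes of 8 lists in the cortex and the hippocampus, with a point per gene, filled red where the adjusted p was under 0.05, and a black bar at the median of each list. Red points appear in the cortex among the 8 genes (2), the other effector genes (4) and the rapid transcription factors (3), and none appear in the hippocampus.

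The summed levels of some cell type markers differed between the groups without overlap. The summed level of 6 microglia markers was 93.7 to 97.6 FPKM in Con and 69.3 to 90.2 FPKM in IR in the cortex, and 88.9 to 101 FPKM in Con and 67.8 to 74.6 FPKM in IR in the hippocampus. That of 5 endothelial markers was 69.8 to 84.3 and 87.7 to 99.9 FPKM in the cortex, and 61.5 to 68.4 and 75.7 to 78.4 FPKM in the hippocampus. The summed level was thus lower for microglia and higher for endothelium in every IR library of both regions. By gene, 2 of 6 microglia markers lay below Con without overlap in the cortex and 5 of 6 in the hippocampus, compared with 9.09% and 9.36% of all genes tested. In the cortex 1 of the 6 was lower with an adjusted p under 0.05 in limma, as were 23 of all 14065 genes tested. Lower with an unadjusted p under 0.05 were 3 of 6 in the cortex and 5 of 6 in the hippocampus. Over all genes tested these were 835 of 14065 and 967 of 14043. For the endothelium 3 of 5 markers lay above Con in the cortex and 1 of 5 in the hippocampus, compared with 11.2% and 10.5% of all genes. The part of these markers in the results of the 8 genes was not tested.

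The sums of 6 oligodendrocyte markers, 1050 to 1302 FPKM in Con and 1306 to 1583 FPKM in IR, and of 8 striatal markers, 86.7 to 91.6 and 92.1 to 99.0 FPKM, were also higher in the IR cortex without overlap, and their part was not tested. By gene, 2 of the 6 oligodendrocyte markers and none of the 8 striatal markers lay above Con there without overlap, and 1 striatal marker lay below, beside 11.2% above and 9.09% below over all genes, so the striatal sum did not stand for its single genes. In the hippocampus 2 of the 6 oligodendrocyte markers lay below Con without overlap, where 9.36% of all genes did, none lay above, and the median log2 fold change of the 6 was -0.20, while it was 0.16 in the cortex. In contrast, 8 general neuron markers summed to 2438 to 2808 FPKM in Con cortex and 2541 to 2840 FPKM in IR cortex, and to 2197 to 2397 and 2189 to 2336 FPKM in the hippocampus, so that the groups overlapped in both regions. The sums of 6 excitatory and 7 inhibitory neuron markers overlapped as well, as did those of the lists for astrocytes, oligodendrocyte precursors, hippocampal fields, cortical layers, choroid plexus, blood and T cells in each region. Single markers of these lists could still differ, and in the hippocampus 3 of 6 astrocyte and 2 of 7 inhibitory neuron markers lay below Con without overlap, again beside 9.36% of all genes. All 6 astrocyte markers had negative log2 fold changes there, 3 of them with an unadjusted p under 0.05 (13.9% of all genes in either direction), and none had an adjusted p under 0.05 in limma. Positive log2 fold changes in the hippocampus were seen for 1 of 8 general neuron markers and 2 of 7 inhibitory neuron markers. Their medians were -0.064 and -0.11, beside -0.010 over all genes tested. In the cortex 4 of the 8 and 6 of the 7 were positive. The choroid plexus sum varied most, from 3.70 to 438 FPKM between libraries of the cortex. No marker of these lists was at 0 in all libraries.

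The genes whose pattern was most like that of each member were found by the Pearson r of log2(FPKM + 1) over the 12 libraries after the mean of each region had been taken away, among 8795 genes with a mean of at least 5 FPKM in each region. This is a description with no p, since the libraries share their group, depth and any shift in cell makeup. For *Arc* these were *Egr1* (r = 0.977), *Nr4a1* (0.976) and *Dusp6* (0.971), all known to be induced by stimulation of neurons. *Nr4a1* was listed at 19.0, 45.5 and 49.3 FPKM in Con cortex and at 71.7, 78.6 and 89.8 FPKM in IR cortex. It thus had the low first Con library in common with *Arc*.

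For *Homer1* they were *Mir124a-1hg* (r = 0.982), the host transcript of a neuronal microRNA, *Spred1* (0.964), an inhibitor of growth factor signaling, and *Fmnl1* (0.961), a formin that acts on actin. In the cortex *Fmnl1* was at 31.3 ± 0.935 FPKM (SD, n = 3) in Con and 52.1 ± 2.50 FPKM in IR, and its hippocampal levels were 36.5 ± 1.16 and 41.6 ± 3.29 FPKM. For *Nptx2* they were *Etv5* (r = 0.929), *Synj2* (0.910) and *Spred3* (0.906). *Etv5*, a transcription factor of the ETS family, was at 27.7 ± 2.03 FPKM in Con cortex and 41.5 ± 0.781 FPKM in IR cortex, and at 19.4 ± 2.15 and 18.2 ± 0.442 FPKM in the hippocampus.

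*Nptx1* was most like *Arnt* (r = 0.929), *Rbbp5* (0.926) and *Eng* (0.916), an endothelial gene that was at 6.36 ± 0.279 and 8.21 ± 0.514 FPKM in Con and IR cortex and at 5.46 ± 0.627 and 7.18 ± 0.633 FPKM in Con and IR hippocampus. *Nptxr* was most like *Islr* (r = 0.934) and *Gpr85* (0.855), and *Npas4* like *Usp21* (0.883), *Ssr2* (0.871) and *Btbd9* (0.865). For *Rgs2* they were *Rwdd1* (r = 0.949), *Mad1l1* (0.947) and *Ndufb9* (0.934), and for *Rgs4* *Ttl* (0.905), *Tmem14a* (0.904) and *Nat8l* (0.903). No member was among the 3 genes most like another. Between members, r was highest for *Homer1* with *Nptx2* (0.788) and with *Arc* (0.767) and lowest for *Nptx2* with *Nptxr* (-0.50).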

How the data were processed

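FPKM values were estimated by the authors with Cufflinks from reads aligned with TopHat to mm10, per the labels and the study's methods, with a geometric normalization run in edgeR, and deposited as 1 value per gene symbol and library. The annotation used by the authors is not given in the sources used here. The labels name Trizol and total RNA, whereas the methods name an RNeasy kit and poly(A) selection, and this was not settled.

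Libraries were grouped by their labels. A gene was tested if 3 or more libraries of a region had 0.5 FPKM or more. Linear models of log2(FPKM + 1) were moderated by limma 3.58.1 (R 4.3.3) with its trend and robust options, and p values were adjusted by Benjamini-Hochberg over all genes tested. Fold changes are on this pseudocount scale, which shrinks those of low genes. The steps were tested on simulated data. An exact permutation test of 3 libraries against 3 cannot give a p below 0.1 and was not used.

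The 8 genes and all lists were chosen with earlier results of these data known. Named genes are the 8 genes, list genes with an adjusted p under 0.05, the 2 most abundant genes of each list, and the 3 genes most like each of the 8, of which 1 is not reported here. *Npcd*, the ratio and the sum of genes were added after values were seen. Alternatives were other filters and pseudocounts, median-of-ratios scaling, quantile normalization, limma without trend or robust prior, the ratio of group means, a single fit, the replicate number as a block, and leaving out each library. The list of 6 T cell markers and the list of 5 blood markers had 0 and 2 genes tested in either region. Promoters and positions came from RefSeq on GRCm38.p6 and GENCODE M21. Figures were drawn with matplotlib 3.10.9.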

Additional observations from a re-analysis of the deposited data

Results flagged for a closer look

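The fold change of *Homer1* differed between the regions by the test of the interaction, with -0.81 on the log2 scale (hippocampus minus cortex, adjusted p = 0.0294 from limma), and IR was higher in 3 of 3 libraries of the cortex and overlapped with Con in the hippocampus. That of *Nptx2* differed by -0.80 (limma adjusted p = 0.0294), with IR higher in 3 of 3 libraries of the cortex and lower in 3 of 3 libraries of the hippocampus. The third Con library of the hippocampus, which stood apart, enters both values.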

How the results depend on the processing

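The count of 2 members with an adjusted p under 0.05 in the cortex was 1 with no filter on low values and 1 for limma without trend or robust prior, and ranged from 1 to 3 when a library was left out, with *Nptx2* lost without each IR library and *Arc* gained without the first Con library. The count by fold change and unadjusted p, which was 2, ranged from 1 to 3 when a library was left out, with *Arc* lost without the second Con or any IR library and *Nptx2* in its place in all of these except without the third IR library, and was 3, *Nptx2* included, when the fold was taken as the quotient of mean FPKM or the pseudocount was 0.1. The 2 members with an adjusted interaction p under 0.05 became 0 with no filter, 0 for limma without trend or robust prior, 0 with the library number as a fixed block over both regions, an alternative chosen after seeing the data (adjusted p = 0.141 for both), and 0 to 2 when a library was left out. None of these changes in call came with a change of direction, and the cause was not tested. The hippocampus had 0 members called under every alternative run. When a library was left out, values near 0 changed sign. The log2 fold change ranged from -0.034 to 0.0438 for *Rgs2* and from -0.043 to 0.18 for *Rgs4* in the cortex, and from -0.014 to 0.089 for *Homer1* and from -0.10 to 0.27 for *Npas4* in the hippocampus.

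The labels do not say what a library number marks. The deviations of libraries of the same number correlated at r from -0.379 to 0.064 between Con and IR of a region, and at r from -0.070 to 0.180 between regions. Since not every pair was over 0.1, the numbers were not used as pairs. Between regions the same number gave the highest r in 3 of 6 cases, and whether such libraries share a mouse is not known. With the replicate block, 2, 0 and 2 members were called in the cortex, the hippocampus and the interaction, and 7 between regions. Over all genes the block moved the calls from 102 to 71 in the cortex, from 4 to 1 in the hippocampus and from 12 to 19 in the interaction. No filter gave 24 and 7 calls in the cortex and the interaction, limma without trend or robust prior 22 and 0, and the fixed block 0 in the interaction. A filter of 1 FPKM in every library gave 2 calls in the hippocampus and 19 in the interaction, and a single fit 73 in the hippocampus. With a library left out, the cortex had 16 to 78 calls, the hippocampus 0 to 880 and the interaction 0 to 487, the highest of the latter both without the third Con library of the hippocampus. The depth in reads is unknown, so precision rests on 3 libraries per group.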
